A study of Mus musculus with 5 samples.

Results

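Kruppel-like factors (KLFs) were followed in thymic T cells of mice with a PLZF transgene. PLZF is a zinc finger regulator of transcription on which NKT cells depend for their innate-like programme. The set was given by name as 7 genes, Klf5, Klf6, Klf7, Klf9, Klf10, Klf11 and Klf12, and 6 of them had an array row that carried their symbol alone. These 6 are described here, of 12267 genes with such a row. The only row of Klf9 carried a second gene symbol, so no level is given for it. All 5 arrays held RNA of sorted thymocytes that were CD4+ and CD8- (CD4 single-positive, CD4SP) from mice of the C57BL/6J background aged 4 to 6 weeks. The wild type group had 2 arrays and the PLZF transgenic group had 3. Each array held cells of pooled mice, and the labels call them biological replicates. What drives the PLZF transgene, and in which cells, is not given in the sources used here, and its gene Zbtb16 was not analysed here, so the genotype labels have no check from its level.

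KLF proteins share a block of C2H2 zinc fingers at the carboxyl end that binds GC-rich DNA and the CACCC box, and they differ in the amino-terminal part that recruits activators or repressors. In T cells the family is best known through Klf2, which keeps naive cells quiescent and is needed for S1pr1 and thus for exit from the thymus. Klf10 and Klf11 were described as early genes induced by TGF-beta, and Klf6 and Klf10 are also induced early by serum and growth factors. Klf2, Klf3, Klf4 and Klf13 were not analysed here.

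Klf6 was higher and Klf7 lower in PLZF transgenic CD4SP cells, and Klf10 lay lower without passing the test. The changes were moderate, a factor of 1.45 for Klf6 and 1.53 for Klf7. The groups of Klf5 and Klf11 overlapped, and Klf12 had the same value on every array. Of the 6 genes, 1 was higher and 1 lower by limma with a Benjamini-Hochberg adjusted p under 0.05 over all genes, where 1.72% and 3.02% of all genes were called higher and lower and 4.74% in either direction. For 3 of the 6 the transgenic values did not overlap the wild type values, which held for 27.7% of all genes. In bulk RNA, a change in the share of cells that express a gene and a change in its RNA per cell cannot be told apart.

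Whether a KLF gene was called depended on having all 3 transgenic arrays. Without any 1 of the 3 transgenic arrays none of the 6 KLF genes passed (limma), while at an unadjusted p under 0.05 there were 2, 3 and 2 without transgenic replicate 1, 2 and 3. Over all genes the count of calls was then 4, 45 and 10 in place of 581. It was 2890 and 1852 without wild type replicate 1 and 2, fits in which the spread comes from the transgenic arrays alone, and Klf6 and Klf7 passed in both. Calls were 36.3% higher genes on the deposited values, 46.4% after quantile normalization and 57.6% without wild type replicate 2. The median intensity of an array lay between 59.0 and 60.3.

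Klf6 encodes a zinc finger activator that is induced early after injury or growth stimulation and is known as a tumour suppressor. Its intensity was 161 and 151 on wild type replicates 1 and 2. It was 225, 229.7 and 226 on transgenic replicates 1, 2 and 3. The transgenic arrays thus lay close together and all above the wild type pair, with a gap of 0.48 on the log2(intensity + 1) scale between the nearest arrays of the groups. On that scale the mean was 7.29 ± 0.07 (SD, n = 2) in wild type and 7.83 ± 0.02 (SD, n = 3) in transgenic cells. The wild type mean of Klf6 was close to that of Col1a1, a stromal marker, at 7.31. Klf6 rose by 0.54 ± 0.03 (SE, 95% interval 0.44 to 0.64; limma adjusted p = 0.0181). The fit over all genes includes many with identical deposited values, and the interval depends on which genes are fitted together. In a fit of only the genes whose 5 values all differ, the SE of Klf6 was 0.055 against 0.035. Dropping single arrays gave changes of 0.49 to 0.59. The limma adjusted p was 0.104, 0.104 and 0.118 without transgenic replicate 1, 2 and 3, in a range of 0.00307 to 0.237 over all alternatives.

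Klf7 encodes the family member best known from the outgrowth of axons in developing neurons. Its row had an intensity of 616 and 670.0 on wild type replicates 1 and 2. On transgenic replicates 1, 2 and 3 it was 424, 416 and 422. All transgenic arrays lay below both wild type arrays, and the nearest arrays of the groups were 0.54 apart on the log2 scale. Klf7 went from 9.33 ± 0.09 (SD, n = 2) to 8.72 ± 0.01 (SD, n = 3), a log2 change of -0.61 ± 0.04 (SE, 95% interval -0.74 to -0.49; limma adjusted p = 0.0200). In the fit of only the genes whose 5 values all differ, the SE of Klf7 was 0.058 against 0.043. Dropping single arrays gave changes of -0.67 to -0.55. The limma adjusted p was 0.116, 0.114 and 0.122 without transgenic replicate 1, 2 and 3, in a range of 0.00184 to 0.238 over all alternatives.

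Klf7 was the one gene of the 6 with 2 rows of its own. The row with the lower mean had an intensity of 122 and 142 in wild type and of 91.9, 90.1 and 93.3 in transgenic cells. Its groups did not overlap either, and wild type replicate 2 was again the highest array. The log2 change of that row was -0.51, and in a fit over all 65529 rows of the table its limma adjusted p was 0.135. The adjusted p of the first Klf7 row was 0.0590 and that of Klf6 0.0600 in the same fit, so neither gene passed when every row was tested. With the mean of both rows, Klf7 had a log2 change of -0.56 ± 0.06 (SE, limma adjusted p = 0.0401).

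**Figure D1:**
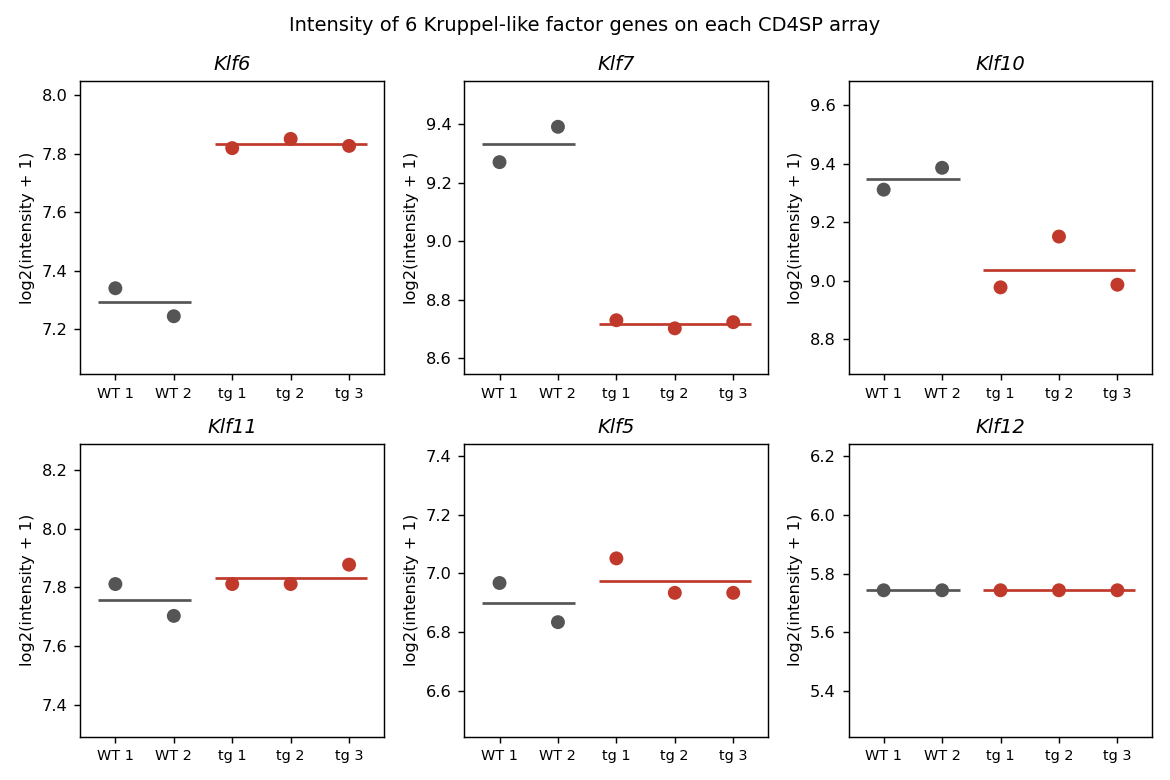
Log2(intensity + 1) of each of the 6 KLF genes (vertical axis, spanning 1 log2 unit in every panel) on the wild type arrays (WT, grey) and PLZF transgenic arrays (tg, red), with lines at the group means. The 3 transgenic points lie above the wild type pair for Klf6 and below it for Klf7 and Klf10, while the groups of Klf11 and Klf5 overlap and the points of Klf12 are level.

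The upstream sequences of Klf6 and Klf7 are shown because these genes passed the test in opposite directions. The RefSeq table (build GRCm38.p6) held a start for 5 of the 7 named genes and for 4 of the 6 measured ones, and the 250 bases before it were read in the sense of the gene. Capitals mark every match, on either strand, to the CACCC box (CACCC) and GC box (GGGCGG) that KLF and SP proteins bind, and to the E-box (CACGTG), the cAMP response element (TGACGTCA) and the EGR site (GCGTGGGCG).
Klf6, chr13:5861239-5861488, plus strand: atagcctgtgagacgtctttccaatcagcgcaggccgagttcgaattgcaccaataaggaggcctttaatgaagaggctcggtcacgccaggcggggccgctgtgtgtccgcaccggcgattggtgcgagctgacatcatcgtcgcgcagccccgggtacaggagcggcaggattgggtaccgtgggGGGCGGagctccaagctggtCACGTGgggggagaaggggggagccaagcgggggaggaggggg
Klf7, chr1:64121390-64121639, minus strand: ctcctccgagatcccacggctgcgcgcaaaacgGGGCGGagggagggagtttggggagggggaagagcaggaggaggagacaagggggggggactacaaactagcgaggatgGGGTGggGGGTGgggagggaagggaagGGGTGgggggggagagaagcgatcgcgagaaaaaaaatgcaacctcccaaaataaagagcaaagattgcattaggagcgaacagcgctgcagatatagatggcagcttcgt

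The Klf7 window held 3 CACCC boxes, all as GGGTG on the strand shown, and 1 GC box. The Klf6 window held 1 GC box, 1 E-box and no CACCC box. Of 32851 RefSeq windows of the same length, 52.0% had a CACCC box, 32.7% a GC box and 6.02% an E-box. The cAMP response element and the EGR site, present in 1.55% and 0.536% of windows, had no match in either gene. In Klf11 there were 4 GC boxes and 1 E-box, and in Klf12 a single CACCC box. In Klf7, which alone of these 4 genes held both kinds of box, the CACCC and GC boxes did not overlap. The G and C content was 64.8% for Klf6, 59.2% for Klf7, 76.8% for Klf11 and 48.0% for Klf12, against a median of 52.4% over all windows. A match describes letters, not a site that is bound.

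Of the genes known for their induction by TGF-beta, Klf10 lay lower in transgenic cells and Klf11 had overlapping groups. Klf10, also known as TIEG1, is a repressor that acts on Smad7 and thereby takes part in TGF-beta signalling of T cells. Its intensity was 634 and 668 in wild type and 503, 567 and 506 in transgenic cells. All transgenic arrays lay below the wild type pair, and transgenic replicate 2 was nearest to it. Klf10 had a log2 change of -0.31 ± 0.07 (SE, 95% interval -0.52 to -0.10) with a limma adjusted p of 0.151, so it did not pass over all genes. Among the 4027 genes whose 5 values all differ, of which 25.9% were called in their own fit, Klf10 had a limma adjusted p of 0.0405, the lowest of its alternatives, which reached 0.653. Its change was -0.37 to -0.27 when arrays were dropped singly.

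Klf11, the close relative known as TIEG2, is a repressor whose human gene is tied to an inherited form of diabetes. Its intensity was 224 and 207 in wild type and 224, 224 and 234 in transgenic cells. Wild type replicate 1 and transgenic replicates 1 and 2 had the identical value, so the groups overlap. The log2 change was 0.08 ± 0.05 (SE, 95% interval -0.06 to 0.21; limma adjusted p = 0.458). With identical deposited values on some arrays, the interval may not measure the spread between arrays. The log2 change of Klf11 was 0.13 and 0.02 without wild type replicate 1 and 2.

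Klf5, known from the renewal of intestinal epithelium and embryonic stem cells, had an intensity of 124 and 113 in wild type. In transgenic cells it was 132, 121 and 121. The groups overlapped, and transgenic replicates 2 and 3 had the same value. The log2 change was 0.07 ± 0.07 (SE, 95% interval -0.12 to 0.27; limma adjusted p = 0.554), and 0.0056 to 0.14 when arrays were dropped singly.

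Klf12, a repressor first described for its action on the AP-2 alpha gene, had an intensity of 52.6 on all 5 arrays. The identical deposited values leave no spread to measure, so they carry no information on whether this gene differs. In all, 1455 of the 12267 genes had 1 value on every array, and 67.2% had the same value on at least 2. Of the 6 KLF genes, 3 had 5 different values, and these are the 3 whose groups do not overlap. Among all genes with 5 different values, 63.1% had groups that do not overlap. The median log2 change of the 6 was 0.04 against 0 over all genes, and the median size of the change 0.19 against 0.05.

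The profiles nearest to the 2 called genes were sought among all genes by the Euclidean distance of log2 values, each minus its own mean over the 5 arrays. For Klf6 they were Paqr8, a membrane progestin receptor (distance 0.06), St3gal6, a sialyltransferase (0.06), and Vav3, a guanine nucleotide exchange factor (0.07). Their log2 changes were 0.53, 0.54 and 0.50. For Klf7 they were Adk, adenosine kinase (distance 0.03), Nab2, a corepressor of EGR proteins (0.04), and Slc49a4 (0.05), with log2 changes of -0.64, -0.61 and -0.65. Adk had a log2 change of -0.41 with the mean of its rows. With 5 arrays in 2 groups, such a distance mostly ranks genes by the size of the group difference.

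**Figure D2:**
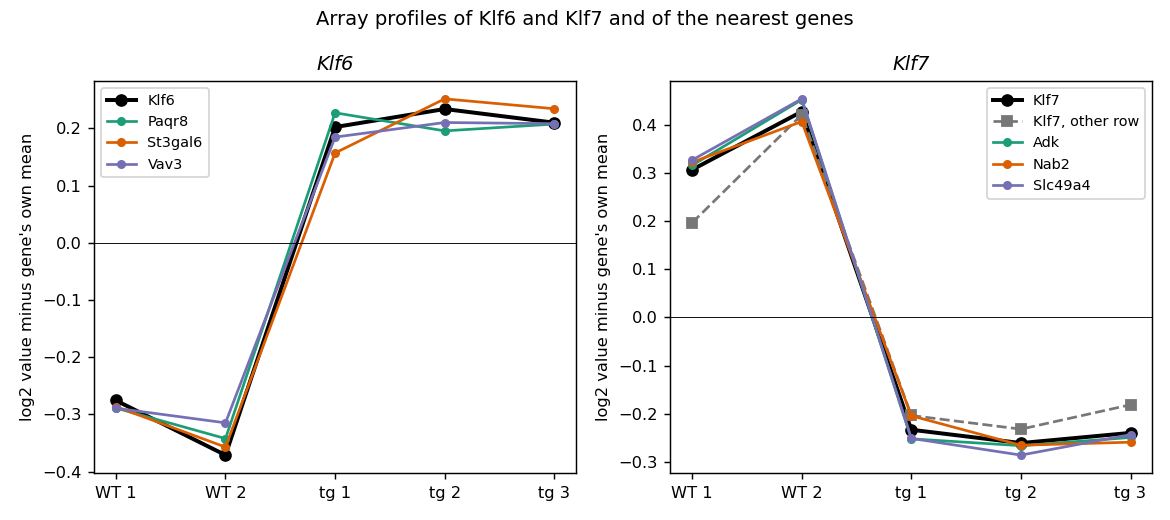
Log2 value minus the gene's own mean (vertical axis) on each array for Klf6 and its 3 nearest genes (left) and for Klf7, its second row (dashed) and its 3 nearest genes (right). In the right panel both Klf7 rows lie lower on the transgenic arrays, with log2 changes of -0.61 and -0.51.

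Other genes of the KLF and SP family showed no call. Of 19 listed, 9 were measured, and none passed (limma), with 4 at an unadjusted p under 0.05 and a median log2 change of -0.04. Klf16, a family member that binds GC-rich sites as a repressor, had the change nearest to the threshold, -0.16 ± 0.02 (SE, limma adjusted p = 0.0628, and 0.0268 after median centring of the arrays). It had a limma adjusted p of 0.0286 with the filter on dim genes and of 0.0474 without wild type replicate 2, in a range up to 0.494 over all alternatives. The ubiquitous GC-box activators Sp1 and Sp3 had log2 changes of -0.04 and -0.06, with limma adjusted p values of 0.458 and 0.175. Sp4 had a change of -0.10, Sp6 of -0.12, Sp5 of 0.13 and Sp9 of 0.01. Without wild type replicate 1 Sp9 passed at 0.03 (limma adjusted p = 0.0113), and without wild type replicate 2 its change was -0.0032. Sp7, a regulator of bone formation, had the widest interval of the family (change 0.39, 95% interval 0.05 to 0.74, limma adjusted p = 0.241). The level of Sp7 was low, with log2 means of 4.37 in wild type and 4.76 in transgenic cells. Sp8, like Klf12, had 1 value on all arrays.

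**Figure D3:**
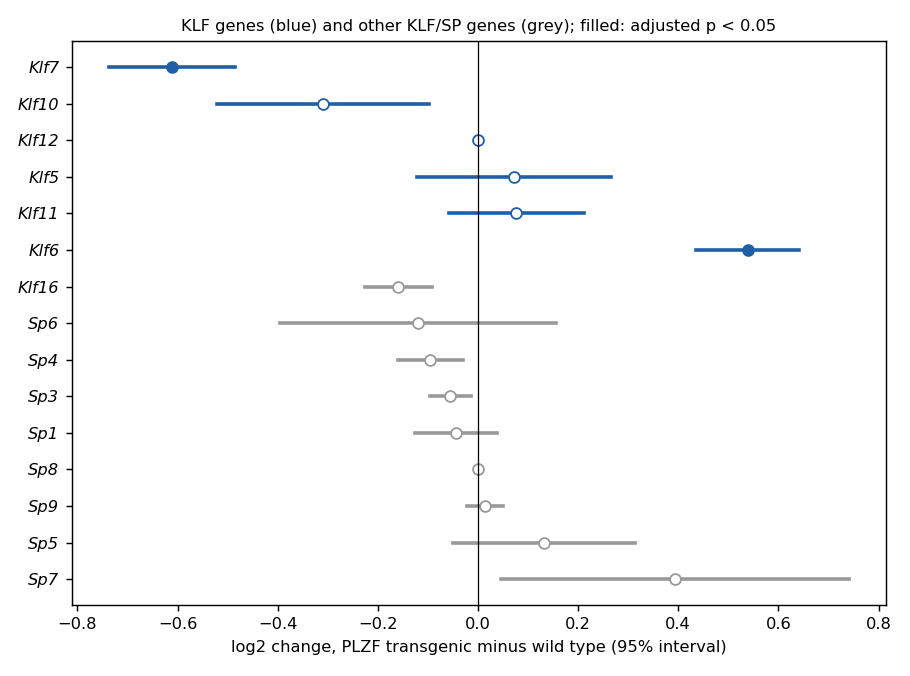
Log2 change, PLZF transgenic minus wild type (horizontal axis), with its 95% interval from limma for the 6 KLF genes (blue) and 9 other KLF and SP genes (grey). Klf6 at 0.54 and Klf7 at -0.61 are the filled points, which have an adjusted p under 0.05. Klf12 and Sp8 had identical values on all arrays, so their interval of -0.0068 to 0.0068 reflects no measured spread.

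Genes around the KLF proteins were read from fixed lists, in which 98 different genes were measured and 9 passed as higher and 15 as lower, set against 4.74% called and a median log2 change of 0 over all genes. These bases are unlike, as 58 of the 98 had 5 different values against 32.8% of all genes. In the fit of genes with 5 different values, 31 of the 58 were called, against 25.9% of all such genes. Without transgenic replicate 1, 2 and 3 there were 0, 2 and 0 calls among these 98 (limma, 37, 41 and 37 at an unadjusted p under 0.05), the 2 being Il7r and Bach2. Among immediate early genes other than Klf6 and Klf10, which are often placed with them, 5 of 18 measured fell and none rose. Their median log2 change was -0.26. Egr2 (-1.03), Egr1 (-0.73), Nr4a3 (-0.73) and Nr4a1 (-0.66) changed most among them. Klf6, at 0.54, thus differed in sign from every called gene of that list, while Klf10 had their sign without passing.

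In the TGF-beta pathway, 3 of 13 measured genes rose and 3 fell (median log2 change -0.05). Smad7, an inhibitory SMAD and a gene that Klf10 represses, fell, with a change of -0.76 and a limma adjusted p of 0.00867. The receptor Tgfbr1 and the corepressor Skil fell too, with changes of -0.75 and -0.61 (limma adjusted p = 0.0165 and 0.0184). Smurf2, a ubiquitin ligase of the pathway, rose by 0.60 (limma adjusted p = 0.0146). Without transgenic replicate 1, 2 or 3 the limma adjusted p lay between 0.0559 and 0.118 for these 4 genes. Among 5 measured ubiquitin ligases and deubiquitinases of KLF proteins, Smurf2 was the one that rose and Fbxo32 the one that fell (log2 change -0.10, limma adjusted p = 0.0200). The limma adjusted p of Fbxo32 was 0.259 after quantile normalization, 0.0774 after cyclic loess and 0.0589 after median centring, so its call was lost under each of these. None of 10 corepressors and coactivators passed (limma), and 0 had an unadjusted p under 0.05. Kat2b, an acetyltransferase, had the largest change of that list with all arrays (0.67, limma adjusted p = 0.458), which was 1.20 without wild type replicate 1, 0.14 without wild type replicate 2 and 0.36 with the mean of its rows. The level of Kat2b was low, with log2 means of 4.31 in wild type and 4.98 in transgenic cells.

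Of 6 measured genes that KLF2 regulates in T cells, S1pr1 fell (log2 change -1.78, limma adjusted p = 0.0165) and none rose. Without transgenic replicate 1, 2 and 3 the limma adjusted p of S1pr1 was 0.0702, 0.101 and 0.0631. Of 14 quiescence factors of naive T cells, 2 rose and 3 fell (median log2 change -0.03). They include Tob1, an inhibitor of proliferation (1.01), Il7r (0.31), Bach2 (-2.24) and Lef1 (-0.60).

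A list of 19 glucocorticoid and thyroid hormone genes was chosen because Klf9 is a target of these hormones. It held targets and also the receptor genes Nr3c1, Thra, Thrb and Rxra. All 19 were measured, and 3 rose and 2 fell (median log2 change 0.12). Sgk1, a kinase, fell by 1.13 and Bcl6, a repressor, by 0.78 on the log2 scale, while Map3k8 (0.48) and Rxra (0.43) rose. Of 10 clock genes, a list chosen because Klf9 and Klf10 follow the clock, Npas2 (1.60) and Nr1d2 (1.37) rose and none fell past the threshold, with a median log2 change of 0.13. Cry2, named after its value was seen, was at -1.28 with groups that did not overlap (limma adjusted p = 0.209). The level of Cry2 was low, with log2 means of 6.11 in wild type and 4.82 in transgenic cells. With the mean of its rows Nr1d2 had a log2 change of 0.68.

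The sort was checked by marker genes. Cd4 and Cd8a were not analysed here. Of 20 CD4SP T cell markers 12 were measured, with a summed intensity of 35276 to 36401 in wild type and 27612 to 28801 in transgenic cells. For 6 measured NK and innate-like T cell markers the sum was 661 to 663 in wild type and 862 to 964 in transgenic cells. For 2 regulatory T cell markers it was 444 to 448 and 921 to 1140, and they differed in sign, with log2 changes of 2.13 for Il2ra and -0.17 for Ikzf2. The sum of 10 macrophage, dendritic cell and granulocyte markers was 721 to 836 in wild type and 671 to 720.0 in transgenic cells. For 6 B cell markers the ranges overlapped, at 373 to 396 and 377 to 402. Sums of 3 immature thymocyte markers (339 to 355 against 293 to 322), 9 epithelial and stromal markers (2107 to 2176 against 1870 to 1897) and 2 erythroid markers (579.6 to 658 against 449.7 to 466) did not overlap and lay lower in transgenic cells. Single genes weighed on these sums. Fasl (log2 change 1.46) was the 1 NK and innate-like T cell marker called. The median of that list was 0.19, with 4 of the 6 markers higher without overlap. Among CD4SP T cell markers S1pr1 was at -1.78, Cd2 at -1.11, Ccr7 at -0.38, Zap70 at 0.01 and Icos at 0.32. Of the 12, 5 were called lower, S1pr1 and Cd2 among them, and 1 higher, Icos, where 4.74% of all genes were called. The median of the CD4SP list was -0.17, with 9 of the 12 markers lower and 1 higher without overlap. Groups did not overlap for 27.7% of all genes and for 63.1% of those with 5 different values. Of the 12 CD4SP markers 9 had 5 different values, and of the 6 NK and innate-like T cell markers 2 did. Pecam1 (log2 change -0.30) was the 1 epithelial and stromal marker whose groups did not overlap, and the median of that list was 0.0086. Tfrc was at -0.54 and Slc4a1 at 0.0036, and Dntt was at -0.54 while Rag2 was at 0.12. The lowest marker intensity was 21.5, in the immature thymocyte list, and Cr2, Adgre1, Col3a1 and Krt5 had 1 value on every array. Which of the markers and of the KLF genes were expressed was not tested. The part of these shifts in the values of Klf6, Klf7 and Klf10 was not tested either.

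**Figure D4:**
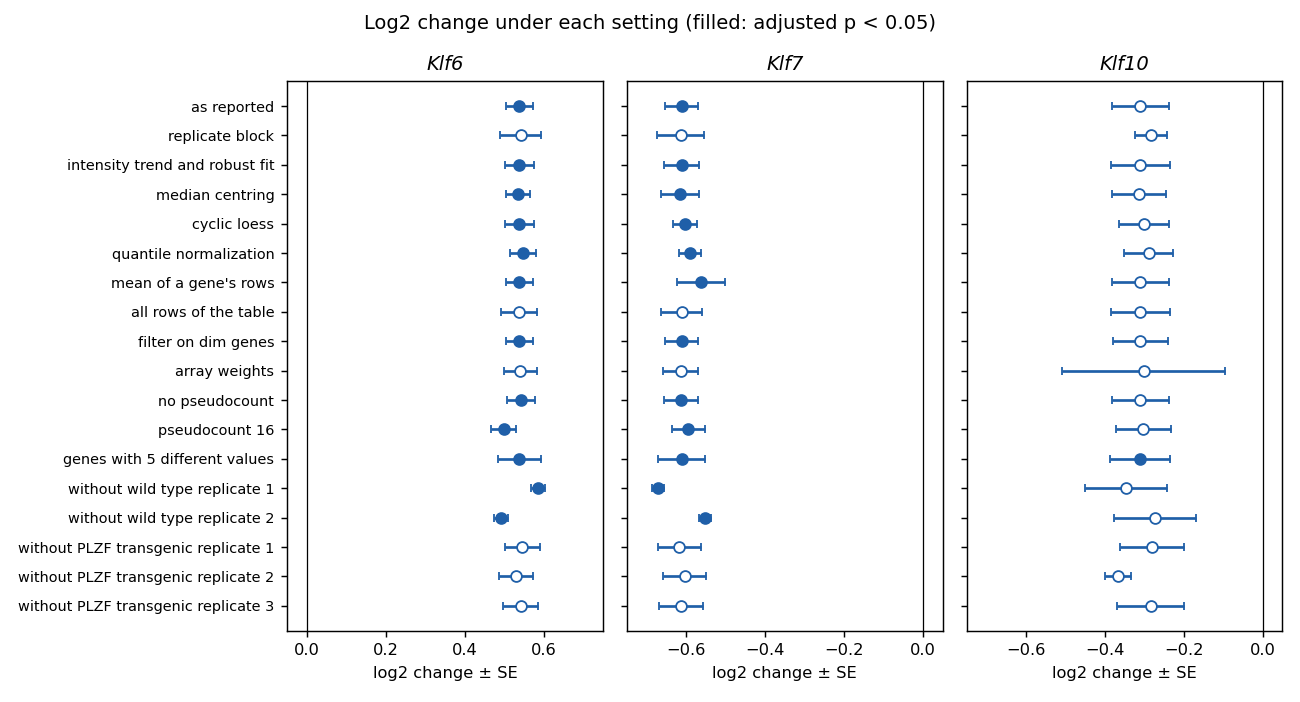
Log2 change with its SE (horizontal axis) of Klf6, Klf7 and Klf10 as reported and under 17 alternatives (rows), filled where the adjusted p was under 0.05. Klf6 stays between 0.49 and 0.59, Klf7 between -0.67 and -0.55 and Klf10 between -0.37 and -0.27, and no point is filled where a transgenic array is left out, with array weights, over all rows or with the replicate block.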

How the data were processed

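RNA of sorted cells was amplified, labelled with biotin and hybridised to Affymetrix mouse exon arrays, per the labels' protocols. The submitters' processing notes name Affymetrix Expression Console, RMA and mm9, with no versions. The authors deposited linear intensity values in 65529 rows, of which 14011 carried 1 gene symbol, 864 several and 50654 none in the platform annotation. RefSeq tables (GRCm38.p6) gave names and sequences, with coordinates in that build only.

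The row with the highest mean was kept per gene, which gave 12267 genes. Transgenic minus wild type was fitted on log2(intensity + 1) with limma 3.58.1 in R 4.3.3 over all genes, with 3 residual degrees of freedom and 0.4996 prior degrees of freedom, and a Benjamini-Hochberg threshold of 0.05. With 2 against 3 arrays the smallest exact permutation p is 0.1, so no such test was run. Genes were named by rule: all KLF members, every measured KLF or SP relative, up to 4 called genes per list (otherwise the largest change), and 3 nearest profiles. The members and lists were chosen with earlier results of these data known. The fit was tested on simulated data. Alternatives were the replicate number as a block, trend and robust fit, median centring, cyclic loess, quantile normalization, the mean of a gene's rows, all rows, a filter at the median of gene means, array weights, no pseudocount or 16, genes with 5 different values, and each array left out.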

Additional observations from a re-analysis of the deposited data

How the results depend on the processing

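No alternative turned the direction of Klf6, Klf7, Klf10, Klf5 or Klf11, and Klf12, at 0 as deposited, had -0.02 after quantile normalization. With 581 genes called as reported, the count was 964 after cyclic loess, 1132 after quantile normalization, 941 with the filter on dim genes, 1043 among genes with 5 different values, 202 over all rows, 1 with array weights and 4 to 2890 with 1 array left out. Of the 2 KLF genes called, 0 passed over all rows (3 at an unadjusted p under 0.05), 0 with array weights (2) and 0 to 2 with 1 array left out, while the other 9 alternatives without the replicate block gave 2 or 3. With array weights the limma adjusted p was 0.0842 for Klf6 and 0.0784 for Klf7. The 24 list genes were 9 over all rows, 0 with array weights (30 at an unadjusted p under 0.05) and 0 to 31 with 1 array left out. With the replicate number as a block, which leaves 1 wild type and transgenic pair for each of 2 numbers, 0 genes, 0 KLF genes and 0 list genes passed (1917, 4 and 38 at an unadjusted p under 0.05). The labels do not say that a number marks shared mice or a shared day. Across genes, the deviations of same-numbered arrays correlated at 0.14 and 0.05. Wild type replicate 1 with transgenic replicate 2 had -0.05, and wild type replicate 2 with transgenic replicate 1 had -0.14. The deviations of 2 wild type arrays from their mean are mirror images, so these values cannot decide on a pairing. The number of arrays and the identical deposited values limit what can be seen for Klf5, Klf11 and Klf12. Why calls move with the setting was not tested.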
